A study of Rattus norvegicus with 12 samples.

Results

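The genes described here take fatty acids into a cell, carry them into mitochondria and oxidise them, or set how much of this is done. They are 40 of the 32545 genes in the deposited count table of a study of rat cardiac fibroblasts, chosen by gene symbol, and all 40 symbols matched 1 row. The study measured RNA by sequencing in 12 cultures that fall into 4 groups of 3. RCF are the parental cardiac fibroblasts, wild type and untreated, which served as the control. GS cells are an immortalized derivative that carries viral Sall4 and Gata4, transcription factors of early embryonic cells and of heart development, and they were sequenced undifferentiated. In GS_diff1 the GS cells were kept in a medium called CMM, labelled for differentiation towards cardiomyocytes. In GS_diff2 they were kept in CMM to which EGM2 solution was added, labelled for both cardiomyocyte and endothelial differentiation. All 12 cultures are labelled as heart, as primarily cultured cells and as cardiac fibroblast. The treatment text that names the viral factors is the same on every sample, RCF included, and the genotype label sets RCF apart as wild type. Not given in the sources used here are strain, age and sex of the animals, the number of GS clones and the days in medium. No GS cultures kept without the media for a matched time are named. Any difference between GS and RCF covers the viral factors, immortalization and time in culture together, and these cannot be told apart.

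Long-chain fatty acids reach a cell bound to albumin or are cut from circulating lipoproteins by lipoprotein lipase, cross the membrane with the help of CD36 and the FATP transporters, and are carried in the cytosol by fatty acid binding proteins. Acyl-CoA synthetases activate them, the carnitine shuttle moves the acyl groups into the mitochondrial matrix, and a cycle of dehydrogenases, hydratases and thiolases shortens them while electron transfer flavoprotein passes electrons to the respiratory chain. The adult heart draws most of its energy from this pathway, and PPAR receptors with their PGC-1 coactivators switch its genes on. Cultured fibroblasts rely more on glucose and glutamine.

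Libraries held 16255682 to 23117864 counts, and levels are given as CPM, counts normalised for library size with TMM factors, as mean ± SD of the 3 cultures of a group. The members together took 0.331 ± 0.00208% of all counts in RCF, 0.194 ± 0.00379% in GS and 0.202 ± 0.004% in GS_diff1, with 0.214 ± 0.00115% in GS_diff2. Genes of the mitochondrial genome took 2.21 ± 0.0416% of counts in RCF and 0.244 ± 0.002% in GS, with 1.59 ± 0.105% in GS_diff1 and 1.83 ± 0.0361% in GS_diff2. The labelled cell type was checked against fixed markers. The summed level of 10 fibroblast markers lay between 29120 and 51530 CPM in every library, and single markers differed in direction. From RCF to GS, Pdgfra went from 97.4 ± 5.17 to 688 ± 31.8 CPM, Lum from 11.2 ± 1.29 to 116 ± 3.08 and Col3a1 from 5338 ± 94.6 to 11400 ± 34.4, while Tcf21 went from 18.5 ± 0.584 to 0.396 ± 0.253 CPM and Dcn from 32.8 ± 1.55 to 1 ± 0.533. Since these are bulk cultures, fewer cells of a type and less RNA per cell cannot be told apart.

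Most members were lower in GS cells than in the fibroblasts they came from. Of the 38 members that passed the filter on low counts, 28 fell and 3 rose in GS against RCF, and 7 did not pass the test. A member was called at an adjusted p under 0.05 (edgeR's quasi-likelihood test, Benjamini-Hochberg over all 14399 genes tested), and log2 differences, the first named group minus the second, are given with their standard error. Over all genes tested, 36.3% were called lower and 35% higher in that comparison, while the members' shares were 73.7% and 7.89%. The members' median log2 difference was −0.51, beside −0.03 over all genes tested, and 11 members fell and 2 rose by at least 2-fold, which 11.7% and 14.2% of all genes did. In GS_diff1 against GS, 11 members rose and 17 fell, where 32% of all genes were called higher and 32.3% lower. In GS_diff2 against GS, 18 rose and 12 fell, where 33.3% of all genes were called higher and 33.7% lower. Set directly against GS_diff1, GS_diff2 had 19 members higher and 8 lower, where 32.1% of all genes were higher and 31.5% lower, and the members' median log2 difference was 0.21 beside 0.004 over all genes. The members' median was −0.07 in GS_diff1 and 0.17 in GS_diff2, both against GS. Against RCF, 28 members were lower and 6 higher in GS_diff1, where 37.4% of all genes were lower and 38% higher. Against RCF, 27 were lower and 6 higher in GS_diff2, where 35.4% of all genes were lower and 37.1% higher. These comparisons share the GS or the RCF libraries, so their counts are not independent of each other. Standard errors and p-values rest on the spread between cultures within groups, pooled over all 4 groups and moderated across genes. Each standard error is the size of the log2 difference divided by the square root of its F statistic. The number of GS clones is not given, so a spread between clones may not be covered. Where a call is said below to end, it was outside the threshold under the alternative named, with the log2 difference that this gave. Ppargc1a and Pnpla2 were too low to be tested, and Cd36 and Fabp4 passed the filter through the groups in which they were highest.

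**Figure D1:**
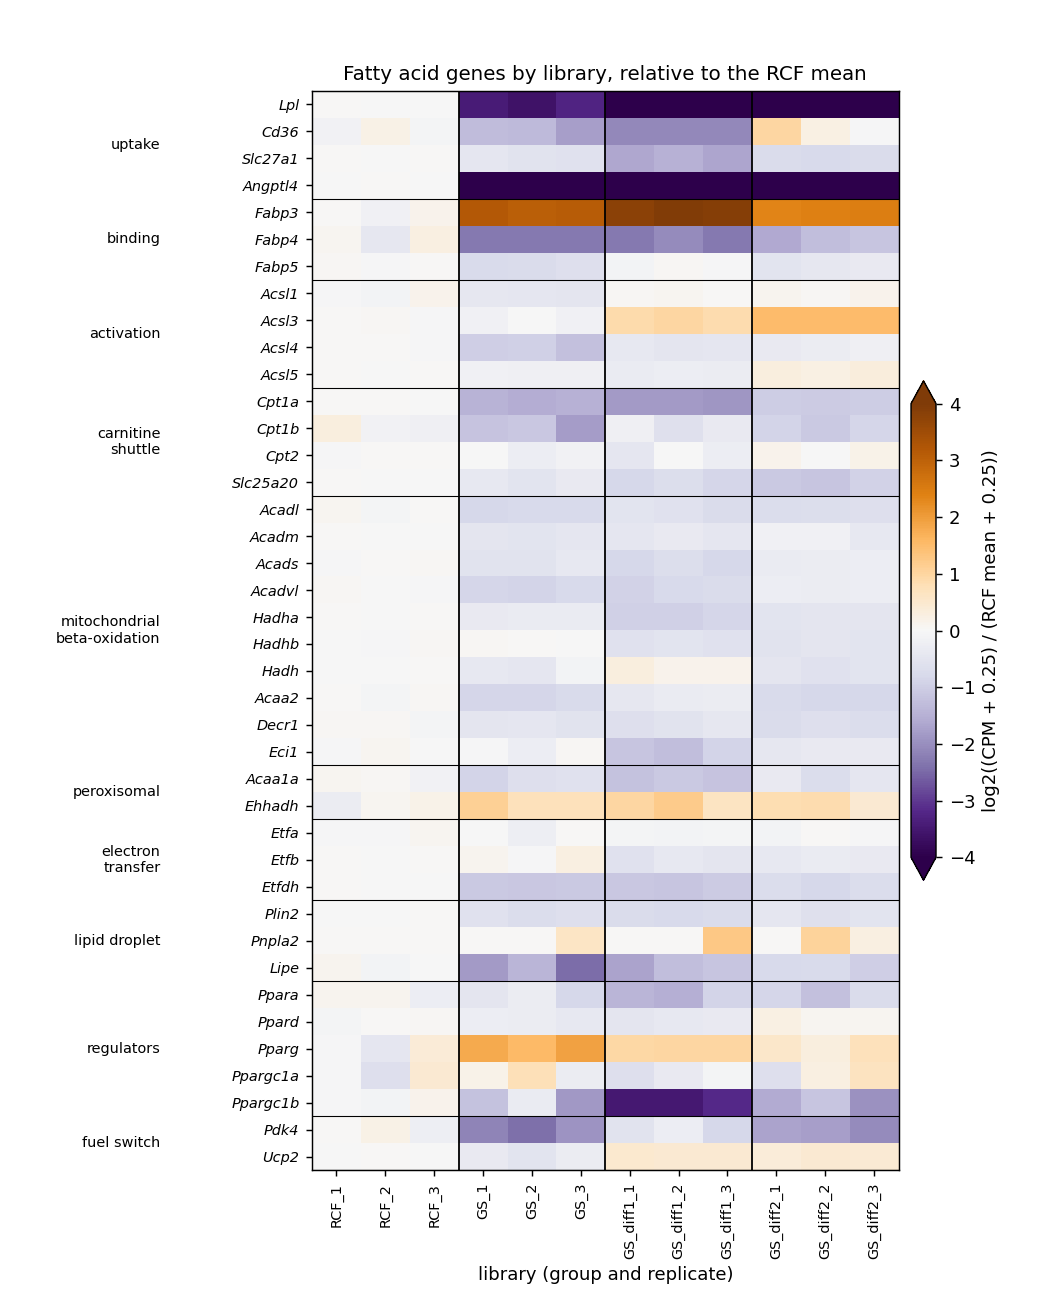
Level of each of the 40 members in each of the 12 libraries, as the log2 ratio of its CPM to the mean CPM of the 3 RCF libraries, with 0.25 CPM added to both. Rows are genes in order of role, columns are libraries in order of group, and the colour scale stops at 4 in either direction. Most rows are below RCF in all 9 GS-derived libraries, while Fabp3 and Pparg stand above RCF in GS.

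All 4 members grouped under uptake and lipoprotein lipolysis fell in GS against RCF. Angptl4 and Lpl had the largest falls among members with at least 5 CPM in RCF. Angptl4, a secreted inhibitor of lipoprotein lipase that PPAR receptors induce (ENSRNOG00000007545, chromosome 7, 18627808 to 18634079 in the deposited table, build Rnor_6.0, as are all gene positions below), measured 477, 489 and 475 CPM in the 3 RCF libraries and 24.6, 23.3 and 21.2 CPM in GS. Values were 7.04, 7.01 and 6.96 CPM in GS_diff1 and 2.44, 2.71 and 3.19 CPM in GS_diff2. No library of one group overlapped those of another, and the order from RCF to GS, GS_diff1 and GS_diff2 was downward at each step. The fall from RCF to GS was 20.8-fold (log2 difference −4.38 ± 0.049 (SE), adjusted p = 6.45e-34), and the further falls from GS were 3.3-fold in GS_diff1 and 8.31-fold in GS_diff2. Its level in GS_diff2 was 2.52-fold below that in GS_diff1 (log2 difference −1.33 ± 0.1 (SE), adjusted p = 1.57e-12). Its promoter window is shown because it is the member with the largest change between the cultures apart from genes at a few counts. The window is from the RefSeq table of the GRCr8 assembly (chr7:15258632-15258931, minus strand, 250 bases before to 50 bases after the start), written 5′ to 3′, and no capitals are set because neither motif searched below was found in it.
Angptl4: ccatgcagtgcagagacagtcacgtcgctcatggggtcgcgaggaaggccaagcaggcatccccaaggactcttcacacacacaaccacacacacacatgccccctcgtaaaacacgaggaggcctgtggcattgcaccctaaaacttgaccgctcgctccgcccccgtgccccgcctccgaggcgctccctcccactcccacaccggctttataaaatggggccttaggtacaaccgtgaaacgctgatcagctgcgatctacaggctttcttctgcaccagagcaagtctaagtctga

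Lpl, lipoprotein lipase itself (ENSRNOG00000012181, chromosome 16, 22537056 to 22561496), fell beside its inhibitor in GS and again in both media. It measured 208, 202 and 203 CPM in RCF, 19, 16.7 and 21.1 in GS, 4.23, 5.5 and 4.87 in GS_diff1 and 7.67, 6.79 and 7.68 in GS_diff2. The RCF libraries stood far above all others, and GS libraries were above both groups in medium. The fall in GS against RCF was 10.8-fold (log2 difference −3.43 ± 0.069 (SE), adjusted p = 2.61e-27), and Lpl fell again by 3.89-fold in GS_diff1 and 2.57-fold in GS_diff2 against GS. The level in GS_diff2 was 1.51-fold above that in GS_diff1 (log2 difference 0.60 ± 0.11 (SE), adjusted p = 2.05e-05). Slc27a1, the long-chain transporter FATP1, measured 104, 104 and 104 CPM in RCF, 76.5, 71.3 and 69.3 in GS, 32.8, 36.8 and 32.2 in GS_diff1 and 62.2, 60.2 and 61.8 in GS_diff2. It was lowest in GS_diff1, 2.14-fold below GS (log2 difference −1.10 ± 0.056 (SE), adjusted p = 1.02e-16) and GS_diff2 was 1.81-fold above GS_diff1 (log2 difference 0.86 ± 0.057 (SE), adjusted p = 4.06e-14). Cd36, the fatty acid translocase, was under 2 CPM in every library. It measured 0.718, 0.975 and 0.757 CPM in RCF, 0.183, 0.174 and 0.0644 in GS, 0 in all 3 GS_diff1 libraries and 1.87, 1.01 and 0.783 in GS_diff2. Against 3 counts in each library as a floor for 0, which allows for counting error alone, Cd36 was at least 7.82-fold higher in GS_diff2 than in GS_diff1 and at least 5.24-fold higher in RCF. Its level in GS was already under that floor, so no fold is given for GS_diff1 against GS.

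Macrophages also express Lpl, Cd36, Fabp4 and Angptl4, and macrophage markers changed beside these genes. The summed level of 10 macrophage markers was 108.1 to 113.7 CPM in the RCF libraries, 23.7 to 27.3 in GS, 16.7 to 17.6 in GS_diff1 and 32.2 to 34.2 in GS_diff2. Lyz2 measured 55.8 ± 2.84 CPM in RCF and 0.348 ± 0.194 in GS, and Adgre1, which encodes the macrophage protein F4/80, measured 14.3 ± 0.98 CPM in RCF and 0 in the other 9 libraries. None of the 10 was at 0 in RCF, whereas 4 were at 0 in GS, 6 in GS_diff1 and 5 in GS_diff2. C1qa and C1qb are among those at 0 in each of these groups. They were close to 0 in RCF too, at 0.242 ± 0.192 and 0.0282 ± 0.0488 CPM. Cd14 did not follow the other markers, at 17.3 ± 0.768 CPM in RCF and 23.3 ± 2.3 in GS, with 14.1 ± 0.899 in GS_diff1 and 29.4 ± 1.11 in GS_diff2. It carried most of the macrophage sum in GS, GS_diff1 and GS_diff2. The part of macrophage RNA in the falls of Lpl, Cd36, Fabp4 and Angptl4 was not tested. Of 10 adipocyte markers, which mark another cell type rich in these genes, Lep and Pck1 were at 0 in all 12 libraries and Adipoq was at 0 in RCF. Adipor2, a receptor gene found in many tissues, carried most of the adipocyte sum of 79.2 to 109.1 CPM. Cidea and Lpin1, also on that list, had means of 2.59 and 20.2 CPM in RCF against 1.34 and 10.4 CPM in GS. They measured 0.43 and 7.48 CPM in GS_diff1, then 0.587 and 19.6 CPM in GS_diff2. Adipor2 was at 66 CPM for RCF and 71.8 for GS. Adipoq, Plin1 and Cidec had their highest means in GS, at 0.163, 0.238 and 0.129 CPM. The part of adipocyte RNA in the levels of the members was not tested.

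**Figure D2:**
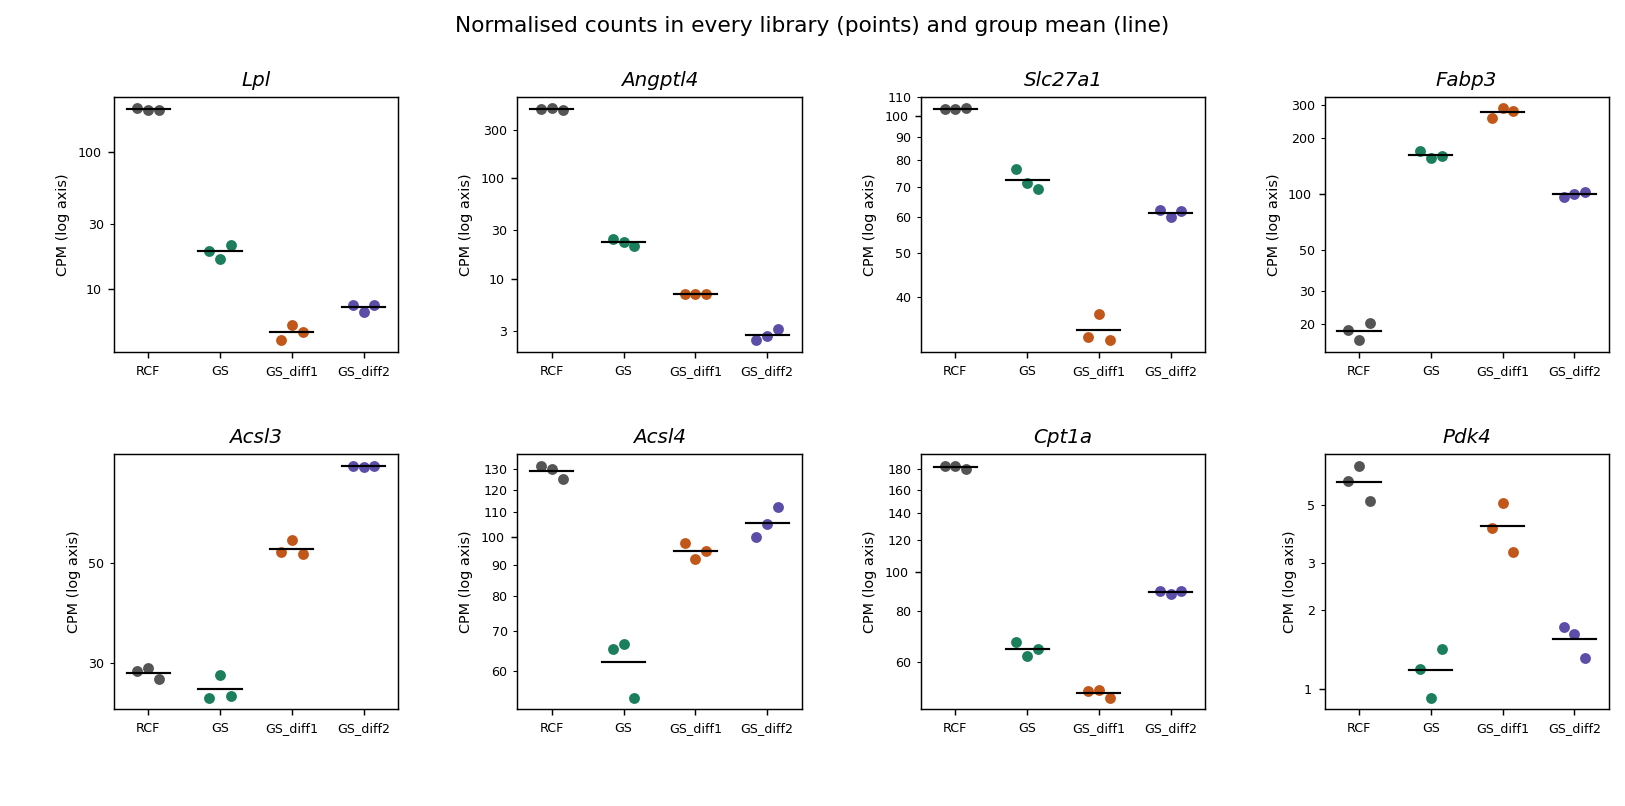
CPM on a log axis of 8 members in each library, grouped by RCF, GS, GS_diff1 and GS_diff2; points are libraries and the line is the group mean. Lpl and Angptl4 are highest in the 3 RCF libraries, Fabp3 is lowest there, and Acsl3 is highest in GS_diff2.

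Fabp3 went the other way from almost all members. This gene encodes the heart type fatty acid binding protein (ENSRNOG00000012879, chromosome 5, 148528725 to 148535565), which carries fatty acids through the cytosol of heart and skeletal muscle. It measured 18.5, 16.3 and 20.2 CPM in RCF, 169, 155 and 159.7 in GS, 256, 287 and 277 in GS_diff1 and 96.1, 100 and 102 in GS_diff2. All 9 GS-derived libraries were above RCF, and the 4 groups did not overlap. The rise in GS against RCF was 8.78-fold (log2 difference 3.13 ± 0.061 (SE), adjusted p = 7.64e-23). Fabp3 rose by 1.7-fold more in GS_diff1, and it fell by 1.62-fold from GS in GS_diff2, so that GS_diff2 was 2.75-fold below GS_diff1 (log2 difference −1.46 ± 0.051 (SE), adjusted p = 1.32e-17). Its span overlaps Zcchc17 on the other strand and the strand setting of the count is not given. The log2 difference of Zcchc17 was −0.50 ± 0.067 in GS against RCF, opposite to Fabp3, 0.57 ± 0.067 in GS_diff1 against GS, in the same direction as Fabp3, and 0.75 ± 0.067 in GS_diff2 against GS, again opposite. The part of its reads in the values of Fabp3 was not tested. The summed level of 10 cardiomyocyte markers was 15.7 to 17.4 CPM in RCF and 4.06 to 4.28 in GS, and 15.5 to 17.3 in GS_diff1 and 36.4 to 39.1 in GS_diff2. Tnnt2 was at 34.1 ± 0.4 CPM in GS_diff2 and 7.67 ± 1.17 in GS_diff1, while Pln was at 0.678 ± 0.152 and 4.84 ± 0.795 CPM and Actc1 at 0.185 ± 0.115 and 1.75 ± 0.522 CPM. Myl2 was at 0 in all 12 libraries. Tnnt2 carried most of the sum in GS_diff2 and also in RCF, where it was at 15.1 ± 0.799 CPM. The highest group means were 0.758 CPM for Myh6, 0.235 for Myh7, 0.77 for Ryr2 and 1.84 for Tnni3. Whether any culture held cardiomyocytes, and any part of them in the level of Fabp3, was not tested. Fabp5, the epidermal type, measured 95.8 ± 2.33 CPM in RCF, 58.8 ± 2.79 in GS and 93.6 ± 4.29 in GS_diff1, with 71 ± 4.05 in GS_diff2. It fell in GS (log2 difference −0.71 ± 0.052 (SE), adjusted p = 3.63e-13) and rose in both media. Within a library, where no scaling enters, the count of Fabp3 was 0.174 to 0.211 times that of Fabp5 in RCF and 2.58 to 2.99 times in GS, with 2.86 to 2.98 times in GS_diff1 and 1.36 to 1.44 times in GS_diff2. Fabp4, the adipocyte and macrophage type, measured 1.06, 0.667 and 1.23 CPM in RCF, 0 in all GS libraries, 0, 0.0504 and 0 in GS_diff1 and 0.156, 0.263 and 0.313 in GS_diff2. It was at least 5.86-fold higher in RCF than in GS.

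The acyl-CoA synthetases activate fatty acids by joining them to coenzyme A. Acsl1, Acsl4 and Acsl5 fell in GS against RCF, Acsl1, Acsl3 and Acsl4 rose in GS_diff1 against GS, and all 4 rose in GS_diff2 against GS. Acsl4, which prefers arachidonic acid and other polyunsaturated fatty acids, measured 132, 129.9 and 125 CPM in RCF, 65.2, 66.7 and 54.2 in GS, 97.8, 92 and 95.1 in GS_diff1 and 99.98, 105 and 112 in GS_diff2. RCF and GS did not overlap, and the libraries in medium lay between them. The fall in GS was 2.07-fold (log2 difference −1.05 ± 0.059 (SE), adjusted p = 9.16e-14), and the rises from GS were 1.53-fold in GS_diff1 and 1.7-fold in GS_diff2. Acsl3, an enzyme of the endoplasmic reticulum and lipid droplets, measured 28.8, 29.2 and 27.7 CPM in RCF, 25.1, 28.2 and 25.3 in GS, 52.8, 56.2 and 52.5 in GS_diff1 and 82.2, 81.9 and 82.5 in GS_diff2. RCF and GS overlapped, and the GS_diff1 and GS_diff2 libraries were above both. Acsl3 rose by 2.06-fold in GS_diff1 (log2 difference 1.04 ± 0.062 (SE), adjusted p = 3.3e-15) and by 3.14-fold in GS_diff2 (log2 difference 1.65 ± 0.061 (SE), adjusted p = 1.98e-20), and GS_diff2 was 1.53-fold above GS_diff1 (log2 difference 0.61 ± 0.057 (SE), adjusted p = 1.1e-10). Acsl1, the main synthetase of heart and liver, went from 50.8 ± 5.14 CPM in RCF to 37.1 ± 1.08 in GS and was 52.4 ± 1.15 in GS_diff1 and 54.3 ± 1.93 in GS_diff2. Against RCF, its log2 difference was 0.05 ± 0.064 in GS_diff1 and 0.09 ± 0.063 in GS_diff2, and neither passed the test. Acsl5, a mitochondrial and reticulum enzyme, was 105 ± 1.64 CPM in RCF and 92.3 ± 0.433 in GS, and 85.4 ± 2.14 in GS_diff1 and 129 ± 4.08 in GS_diff2, and it was the only one of the 4 to fall in GS_diff1 (log2 difference −0.11 ± 0.042, adjusted p = 0.0197). That call ended at −0.11 to −0.05 with only the 2 groups fitted, or with no filter, or with library totals only, or without GS replicate 1 or GS_diff1 replicate 1. The call of Acsl4 in GS_diff2 against GS_diff1 (0.16 ± 0.057) ended at 0.11 to 0.16 without GS_diff2 replicate 3 or GS_diff1 replicate 2 or GS_diff1 replicate 3.

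The mitochondrial oxidation enzymes moved by less, and most were lower in GS. Of these 10 members, 8 fell in GS against RCF, none rose, and Hadhb and Eci1 did not pass the test. The 4 acyl-CoA dehydrogenases, which catalyse the first step for chains of different length, all fell. Acadvl, for very long chains, was 97 ± 3.96 CPM in RCF and 54.1 ± 1.5 in GS (log2 difference −0.84 ± 0.052 (SE), adjusted p = 4.93e-15). Acadl, for long chains, was 116 ± 5.5 and 66 ± 0.791 CPM (log2 difference −0.81 ± 0.051). Acadm and Acads, for medium and short chains, had log2 differences of −0.49 ± 0.068 and −0.51 ± 0.069. Acaa2, the thiolase that releases acetyl-CoA, was 73 ± 3.87 CPM in RCF and 41.2 ± 1.39 in GS (log2 difference −0.83 ± 0.058 (SE), adjusted p = 1.04e-13). Hadh, which acts on medium and short 3-hydroxyacyl-CoA, and Decr1, which handles double bonds of unsaturated chains, had log2 differences of −0.32 ± 0.075 and −0.49 ± 0.067.

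Values of these enzymes differed between the media. Acadvl was at 55.4 ± 3.42 CPM in GS_diff1, close to GS, and at 79.7 ± 0.494 CPM in GS_diff2, a rise of 1.47-fold over GS (log2 difference 0.56 ± 0.052 (SE), adjusted p = 9.38e-11). Acadm and Acads also rose in GS_diff2 against GS, by 0.24 ± 0.069 and 0.21 ± 0.07 on the log2 scale. In GS_diff1 against GS, Acaa2, Hadh and Acadl rose. Acadl was 76 ± 5.4 CPM in GS_diff1 and 72.9 ± 1.64 in GS_diff2. Acads fell in GS_diff1, from 32.85 ± 2.22 CPM in GS to 27.2 ± 1.845. Hadh went from 32.3 ± 4.13 CPM in GS to 46.1 ± 2.56 in GS_diff1 but was 27.8 ± 0.914 in GS_diff2, so that GS_diff2 was 1.66-fold below GS_diff1 (log2 difference −0.73 ± 0.075 (SE), adjusted p = 8.31e-10). Acaa2 was 57 ± 2.26 CPM in GS_diff1 and 41.8 ± 1.26 in GS_diff2 (log2 difference −0.45 ± 0.058 (SE), adjusted p = 7.45e-08). Eci1, an isomerase that moves double bonds so that unsaturated chains can be shortened, measured 45.1, 49.3 and 46.8 CPM in RCF, 45.7, 39.2 and 49.1 in GS, 21.4, 19.4 and 25.6 in GS_diff1 and 34.8, 36.5 and 36.6 in GS_diff2. The GS_diff1 libraries were below all others, 2.03-fold below GS (log2 difference −1.02 ± 0.087 (SE), adjusted p = 7.9e-11) and GS_diff2 was 1.63-fold above GS_diff1 (log2 difference 0.71 ± 0.088 (SE), adjusted p = 7.87e-08). Some small differences in GS_diff2 depended on 1 library or on the scaling. Against GS, the call of Acadl (0.14) ended at 0.13 without GS_diff2 replicate 3 or GS replicate 1, that of Acads at 0.18 without GS replicate 1, that of Hadh (−0.21) at −0.18 to −0.11 with library totals only, or without GS_diff2 replicate 2 or GS replicate 3 and that of Decr1 (−0.20) at −0.18 to −0.12 with library totals only, or without GS_diff2 replicate 1. Against GS_diff1, the call of Acadm (0.17) ended at 0.14 to 0.15 without GS_diff2 replicate 2 or GS_diff2 replicate 1 or GS_diff1 replicate 1 or GS_diff1 replicate 3. Against RCF, the call of Hadh in GS_diff1 (0.20) ended at 0.15 without GS_diff1 replicate 1.

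Hadha and Hadhb encode the alpha and beta subunits of the mitochondrial trifunctional protein, which carries out the last 3 steps of the cycle for long chains. The genes lie head to head on chromosome 6. Their starts are 301 bases apart in GRCr8, and the promoter windows of 300 bases share 200 bases. In the deposited table, whose gene models the counts rest on, 6662 bases lie between the models, so the shared window holds for the RefSeq starts only. The windows are shown because the ratio of the subunits' RNAs differed between groups while these bases are common to both. Both are from the RefSeq table of GRCr8, Hadha at chr6:31907551-31907850 on the plus strand and Hadhb at chr6:31907451-31907750 on the minus strand, each written 5′ to 3′ on its own strand. Capitals mark the bases that both windows hold.
Hadha: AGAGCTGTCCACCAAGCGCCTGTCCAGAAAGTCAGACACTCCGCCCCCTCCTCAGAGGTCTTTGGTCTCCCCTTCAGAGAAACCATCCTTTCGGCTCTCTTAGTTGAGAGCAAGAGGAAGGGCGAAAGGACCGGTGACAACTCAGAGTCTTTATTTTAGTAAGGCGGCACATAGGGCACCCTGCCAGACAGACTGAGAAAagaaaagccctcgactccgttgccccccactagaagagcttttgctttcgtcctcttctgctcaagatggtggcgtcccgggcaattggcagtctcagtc
Hadhb: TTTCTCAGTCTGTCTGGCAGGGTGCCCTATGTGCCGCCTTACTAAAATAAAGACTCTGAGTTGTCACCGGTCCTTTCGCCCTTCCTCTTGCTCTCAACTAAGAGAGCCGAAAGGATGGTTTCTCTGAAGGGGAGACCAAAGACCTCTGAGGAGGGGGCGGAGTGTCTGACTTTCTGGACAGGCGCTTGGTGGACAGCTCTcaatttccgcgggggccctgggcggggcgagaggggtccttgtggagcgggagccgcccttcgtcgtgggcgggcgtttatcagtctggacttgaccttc

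Hadha was 314 ± 2.29 CPM in RCF, 249 ± 4.2 in GS and 165 ± 5.56 in GS_diff1, with 224 ± 2.41 in GS_diff2. Hadhb was 273 ± 8.49 CPM in RCF and 275 ± 4.09 in GS, with 184 ± 5.16 in GS_diff1 and 190.1 ± 3.98 in GS_diff2. Hadha fell in GS against RCF (log2 difference −0.34 ± 0.032 (SE), adjusted p = 1.19e-10), and Hadhb had a log2 difference of 0.01 ± 0.033 (SE), which did not pass the test. With library totals only, Hadhb was at −0.09 (adjusted p = 0.021). Both fell in GS_diff1 against GS, by log2 differences of −0.59 ± 0.033 and −0.58 ± 0.034. In GS_diff2 against GS_diff1, Hadha rose (log2 difference 0.44 ± 0.033 (SE), adjusted p = 6.84e-13), while Hadhb had a log2 difference of 0.04 ± 0.034. Within each library the count of Hadha was 1.11 to 1.17 times that of Hadhb in RCF and 0.872 to 0.925 times in GS, and 0.851 to 0.947 times in GS_diff1 and 1.16 to 1.19 times in GS_diff2. The ratio was higher in all 6 RCF and GS_diff2 libraries than in all 6 GS and GS_diff1 libraries, and no scaling enters it. The genes differ in length (2948 and 1947 bases), so a ratio of 1 does not mean equal levels of the RNAs. Per kilobase of gene length (RPKM), Hadha was below Hadhb in every group. The means were 106.5 and 140.1 in RCF, 84.4 and 141.3 in GS, 56 and 94.7 in GS_diff1, and 75.9 and 97.7 in GS_diff2. The call of Hadha in GS_diff2 against GS (−0.15) ended at −0.07 with library totals only.

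The promoter table held windows for 31 of the 40 members, 33 windows in all since Plin2 and Pparg have 2 each. Searches covered both strands. The first was the direct repeat that PPAR and RXR receptors bind, 2 copies of AGGTCA with 1 base of any kind between them, with up to 2 mismatches in its 12 fixed bases. It was found in 3 of the 33 member windows (9.09%) and in 3.77% of all 33469 windows in the table, and with no mismatch in none of the 33 and in 0.0538% of all windows. The second was the element of estrogen-related receptors, TCA followed directly by AGGTCA, found with no mismatch in none of the 33 and in 0.433% of all windows. The median GC content was 61.3% in the member windows and 51.7% in all windows, and its part in these shares was not tested. A match is a run of letters and says nothing of binding. The matches were in Acadvl with 1 mismatch, from 17 to 5 bases before the start, and in Etfa and Slc25a20 with 2 mismatches each. The windows of Acadvl and Slc25a20 are shown because they hold the match in the gene's own direction, marked in capitals. They are from GRCr8, at chr10:55236656-55236955 on the minus strand and chr8:118243323-118243622 on the plus strand, written 5′ to 3′.
Acadvl: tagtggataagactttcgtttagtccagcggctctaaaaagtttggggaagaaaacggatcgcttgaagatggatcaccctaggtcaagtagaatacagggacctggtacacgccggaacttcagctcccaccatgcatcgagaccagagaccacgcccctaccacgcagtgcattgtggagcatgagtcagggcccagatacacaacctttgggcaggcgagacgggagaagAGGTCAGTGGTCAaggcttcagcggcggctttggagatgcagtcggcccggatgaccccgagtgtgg
Slc25a20: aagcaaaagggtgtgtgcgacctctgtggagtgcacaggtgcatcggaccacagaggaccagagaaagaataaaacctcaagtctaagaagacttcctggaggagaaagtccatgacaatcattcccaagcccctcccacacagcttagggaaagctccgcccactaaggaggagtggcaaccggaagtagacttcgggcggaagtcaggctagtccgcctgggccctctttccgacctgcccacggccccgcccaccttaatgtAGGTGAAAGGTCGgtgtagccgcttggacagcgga

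These matched genes did not share a pattern of levels. Acadvl fell in GS and rose in GS_diff2 as given above, Slc25a20 was lower at each step from RCF to GS, GS_diff1 and GS_diff2, and Etfa did not pass the test in any of the 6 comparisons.

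Of the carnitine shuttle, which moves acyl groups across the inner mitochondrial membrane, 3 of 4 members fell in GS against RCF. Cpt1a, the liver type of the outer membrane enzyme that sets the rate of entry (ENSRNOG00000014254, chromosome 1, 218569510 to 218629678), measured 184, 184 and 180.3 CPM in RCF, 67.3, 62.1 and 64.7 in GS, 50.9, 51 and 48.9 in GS_diff1 and 89.7, 88.4 and 90.1 in GS_diff2. No groups overlapped, with RCF highest, then GS_diff2, GS and GS_diff1. The fall in GS was 2.82-fold (log2 difference −1.50 ± 0.042 (SE), adjusted p = 1.77e-23). Cpt1a fell further in GS_diff1 (log2 difference −0.36 ± 0.045) and rose in GS_diff2 (0.47 ± 0.043), which left GS_diff2 1.78-fold above GS_diff1 (log2 difference 0.83 ± 0.044 (SE), adjusted p = 2.15e-16). Cpt1b, the muscle type, measured 7.86, 5.8 and 5.54 CPM in RCF, 2.71, 2.83 and 1.67 in GS, 5.47, 4.08 and 4.93 in GS_diff1 and 3.32, 2.89 and 3.4 in GS_diff2. It fell by 2.64-fold in GS (log2 difference −1.40 ± 0.23 (SE), adjusted p = 3.46e-06) and rose by 1.99-fold in GS_diff1 (log2 difference 1.00 ± 0.23 (SE), adjusted p = 0.000433). Its span overlaps Chkb on the same strand. Chkb had 4497 counts over the 12 libraries beside 1026 of Cpt1b, and it moved in the same directions (log2 difference −1.12 ± 0.093 in GS against RCF and 0.34 ± 0.095 in GS_diff1 against GS), so the values of Cpt1b are uncertain. Slc25a20, the carrier that exchanges acylcarnitine for carnitine, was 70.4 ± 1.27 CPM in RCF, 52.2 ± 2.98 in GS and 40.9 ± 2.79 in GS_diff1, with 34 ± 2.46 in GS_diff2, and each step down passed the test. Cpt2, which restores acyl-CoA in the matrix, lay between 24.3 and 30.7 CPM as group means, and it did not pass the test in GS against RCF (−0.14 ± 0.091). It was called in GS_diff2 against GS (0.24 ± 0.091), a call that ended at 0.17 to 0.23 without GS replicate 2 or GS_diff2 replicate 3 or GS_diff2 replicate 1 or GS replicate 3. Against RCF, its call in GS_diff1 (−0.24) ended at −0.23 to −0.13 without GS_diff1 replicate 3 or GS_diff1 replicate 1. The call of Cpt1b in GS_diff2 against GS_diff1 (−0.59) ended at −0.58 to −0.49 without GS_diff1 replicate 3 or GS_diff2 replicate 2 or GS_diff1 replicate 1.

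**Figure D3:**
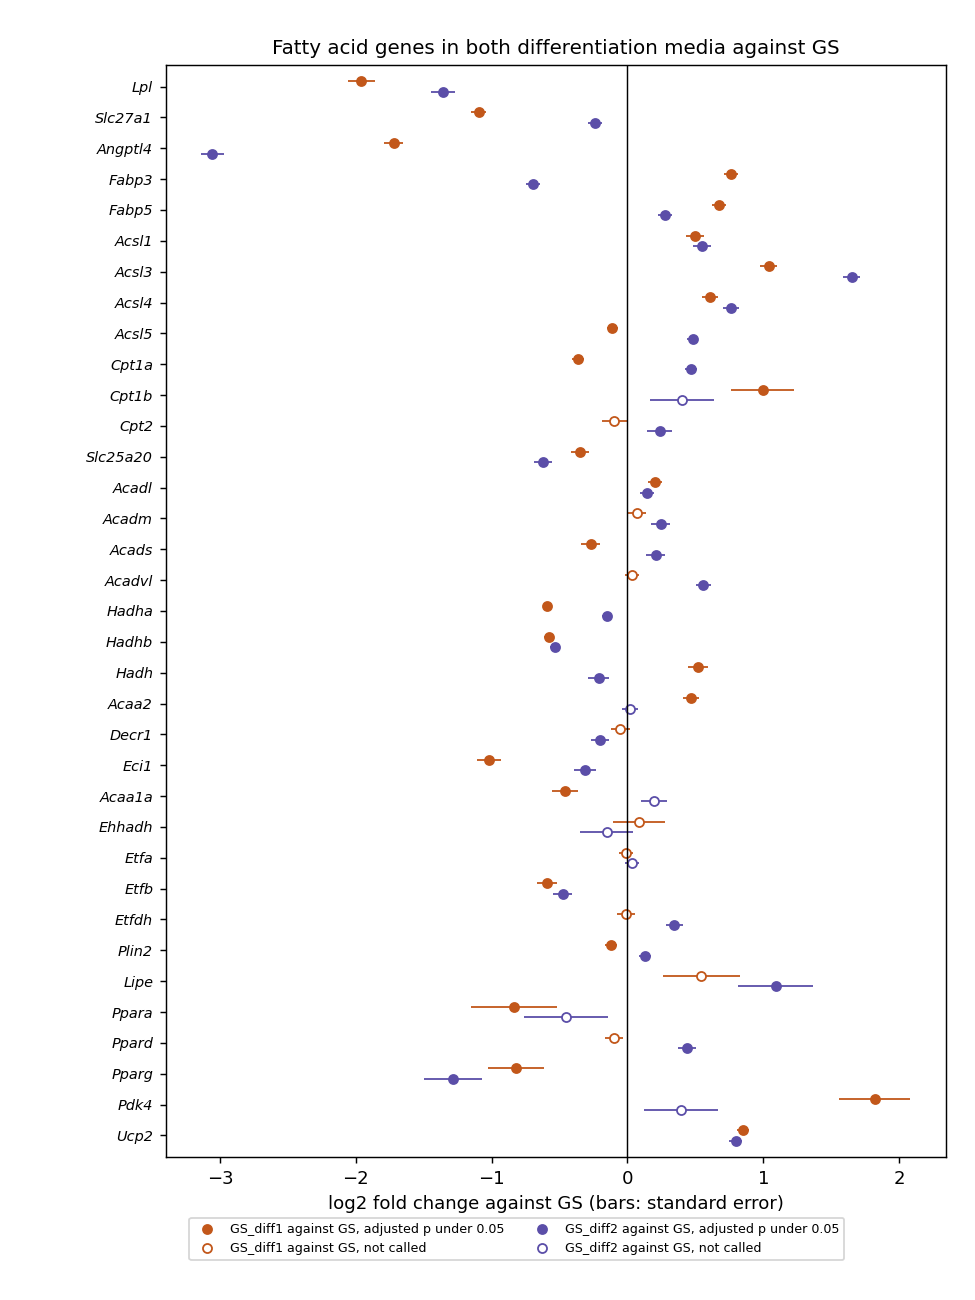
Log2 difference from GS, with its standard error, of 35 tested members in GS_diff1 and in GS_diff2, ordered by role; Cd36, Fabp4 and Ppargc1b are left out because a group was at or near 0. Filled points passed the test. Acsl3 is above 0 and Lpl and Angptl4 are below 0 in both media, while Cpt1a and Acsl5 lie on opposite sides of 0.

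Electrons from the dehydrogenases pass to electron transfer flavoprotein, made of Etfa and Etfb, and from there to the ubiquinone oxidoreductase Etfdh. Etfdh measured 68.2, 65.4 and 66.8 CPM in RCF, 31.2, 30.8 and 31.4 in GS, 30.9, 29.9 and 32.2 in GS_diff1 and 40.8, 37.3 and 40.7 in GS_diff2. RCF was above all other libraries, and the fall in GS was 2.14-fold (log2 difference −1.10 ± 0.061 (SE), adjusted p = 4.34e-16). Etfa lay between 103 and 109 CPM as group means. Within a library the count of Etfdh was 0.585 to 0.642 times that of Etfa in RCF and 0.287 to 0.331 times in GS, with 0.293 to 0.311 times in GS_diff1 and 0.34 to 0.4 times in GS_diff2. Etfb was 49.99 ± 0.586 CPM in RCF and 54 ± 6.19 in GS, a log2 difference of 0.11 ± 0.068 that did not pass the test, and it fell to 35.8 ± 2.32 CPM in GS_diff1 (log2 difference −0.59 ± 0.07 (SE), adjusted p = 1.44e-08) and 38.7 ± 0.87 CPM in GS_diff2.

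The peroxisomal members went in opposite directions. Acaa1a, the peroxisomal thiolase, fell from 38 ± 2.89 CPM in RCF to 23.4 ± 2.52 in GS (log2 difference −0.70 ± 0.091 (SE), adjusted p = 5.94e-08), fell again to 16.9 ± 0.868 in GS_diff1, and was 1.58-fold higher in GS_diff2 than in GS_diff1 (log2 difference 0.66 ± 0.094 (SE), adjusted p = 4.78e-07). Ehhadh, the bifunctional enzyme of the middle steps, rose from 3.56 ± 0.62 CPM in RCF to 6.76 ± 1.1 in GS (log2 difference 0.93 ± 0.2 (SE), adjusted p = 0.000143) and was 7.18 ± 1.42 in GS_diff1 and 6.09 ± 0.929 in GS_diff2. It was 1 of the 3 members that rose in GS, beside Fabp3 and Pparg.

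Stored fat is covered by Plin2, a coat protein of lipid droplets, and by the lipases Lipe and Pnpla2. Plin2 fell from 174 ± 3.34 CPM in RCF to 111 ± 5.96 in GS (log2 difference −0.64 ± 0.043 (SE), adjusted p = 5.19e-14). In GS_diff1 it was 103 ± 2.94 CPM and in GS_diff2 122 ± 6.51, the higher of these (log2 difference 0.25 ± 0.044). Lipe, hormone-sensitive lipase, measured 6.12, 5.18 and 5.63 CPM in RCF, 1.42, 1.97 and 0.837 in GS, 1.57, 2.22 and 2.43 in GS_diff1 and 3.11, 3.24 and 2.72 in GS_diff2. RCF was above all other libraries, with a fall of 3.98-fold in GS (log2 difference −1.99 ± 0.27 (SE), adjusted p = 1.82e-07), and Lipe rose by 2.13-fold in GS_diff2 against GS (log2 difference 1.09 ± 0.28 (SE), adjusted p = 0.000983). Pnpla2, the first lipase of triglyceride breakdown, had 15 counts over all 12 libraries and was not tested. The table holds a further row, LOC100911615, described with the same protein, so the level of Pnpla2 in these cells is uncertain. Against GS, the call of Plin2 in GS_diff1 (−0.12) ended at −0.09 to −0.06 with library totals only, or without GS_diff1 replicate 2 or GS replicate 1, and that in GS_diff2 (0.13) ended at 0.09 without GS_diff2 replicate 1 or GS replicate 2.

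Of the regulators, Pparg, the receptor best known from fat cells, was the one that rose in GS. It measured 2.45, 1.8 and 3.45 CPM in RCF, 9.59, 7.93 and 10.4 in GS, 5.23, 5.29 and 5.28 in GS_diff1 and 3.84, 3.2 and 4.44 in GS_diff2. The GS libraries were above all others. The rise over RCF was 3.62-fold (log2 difference 1.85 ± 0.22 (SE), adjusted p = 8.64e-09), and Pparg fell by 1.77-fold in GS_diff1 (log2 difference −0.82 ± 0.21 (SE), adjusted p = 0.00101) and by 2.44-fold in GS_diff2 (log2 difference −1.29 ± 0.21 (SE), adjusted p = 3.98e-06). Its call in GS_diff2 against RCF (0.57) ended at 0.37 to 0.57 with only the 2 groups fitted, or without RCF replicate 2 or GS_diff2 replicate 3 or RCF replicate 1. Ppard, the broadly expressed receptor, was 48.2 ± 2.03 CPM in RCF and 39 ± 1.81 in GS, and 36.4 ± 1.65 in GS_diff1 and 53 ± 3.71 in GS_diff2, with a fall in GS (log2 difference −0.30 ± 0.065 (SE), adjusted p = 0.00013) and a rise in GS_diff2 against GS (log2 difference 0.44 ± 0.065 (SE), adjusted p = 6.82e-07). Ppara, the receptor that drives oxidation genes in liver and heart, was low, at 3.2 ± 0.477 CPM in RCF, 2.14 ± 0.439 in GS and 1.21 ± 0.361 in GS_diff1, with 1.57 ± 0.31 in GS_diff2. It did not pass the test in GS against RCF (−0.58 ± 0.3), and its call in GS_diff1 against GS (−0.83) ended at −0.80 to −0.68 without GS replicate 1 or GS_diff1 replicate 1 or GS replicate 2 or GS_diff1 replicate 2. The PGC-1 coactivators, which raise mitochondrial gene expression, were low. Ppargc1a had 36 counts over all 12 libraries and was not tested. Ppargc1b measured 2.45, 2.31 and 2.84 CPM in RCF, 0.964, 1.97 and 0.515 in GS, 0, 0 and 0.058 in GS_diff1 and 0.674, 1.01 and 0.47 in GS_diff2, and the GS_diff1 value rests on 1 count. Its call in GS against RCF (−1.13) ended at −1.05 to −0.80 without RCF replicate 3 or GS replicate 1 or GS replicate 3.

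Pdk4 blocks pyruvate dehydrogenase and so turns mitochondria from glucose to fatty acids. It measured 6.17, 7.03 and 5.16 CPM in RCF, 1.19, 0.926 and 1.42 in GS, 4.09, 5.09 and 3.3 in GS_diff1 and 1.71, 1.62 and 1.31 in GS_diff2. RCF and GS_diff1 were above GS, and GS and GS_diff2 overlapped. Pdk4 fell by 5.18-fold in GS (log2 difference −2.37 ± 0.26 (SE), adjusted p = 2.43e-09) and rose by 3.53-fold in GS_diff1 (log2 difference 1.82 ± 0.26 (SE), adjusted p = 4.87e-07), while its log2 difference in GS_diff2 against GS was 0.39 ± 0.27 and did not pass the test. Against GS_diff1 it was 2.69-fold lower in GS_diff2 (log2 difference −1.43 ± 0.25 (SE), adjusted p = 1.27e-05). Its call in GS_diff1 against RCF (−0.55) ended at −0.55 to −0.41 with no filter, or without RCF replicate 1 or GS_diff1 replicate 1 or RCF replicate 2 or GS_diff1 replicate 3. Ucp2, a carrier of the inner mitochondrial membrane, was 112 ± 1.41 CPM in RCF and 85.9 ± 6.56 in GS, with 155 ± 2.38 in GS_diff1 and 149 ± 5.92 in GS_diff2. It fell in GS (log2 difference −0.38 ± 0.046 (SE), adjusted p = 1.16e-08) and rose above RCF in both media (log2 differences from RCF 0.47 ± 0.044 and 0.41 ± 0.044).

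Levels of family members were compared per length, as RPKM from the gene lengths in the table. Among the binding proteins, Fabp5 led in RCF at 132 ± 3.23 RPKM with Fabp3 at 24 ± 2.59, and Fabp3 led in the other groups, at 211 ± 9.21 RPKM in GS, 358 ± 20.7 in GS_diff1 and 130.2 ± 3.87 in GS_diff2. Acsl5 was the highest synthetase in every group, at 42.9 ± 0.668 RPKM in RCF and 37.6 ± 0.176 in GS, and 34.8 ± 0.871 in GS_diff1 and 52.5 ± 1.66 in GS_diff2. Of the outer membrane carnitine enzymes, Cpt1a, the liver type, was above Cpt1b, the muscle type, in every group, at 42.2 ± 0.47 and 1.69 ± 0.336 RPKM in RCF and 14.9 ± 0.6 and 0.636 ± 0.168 RPKM in GS. Of the receptors, Ppard was highest in every group, at 8.58 ± 0.361 RPKM in RCF and 6.94 ± 0.322 in GS, where Pparg was at 4.06 ± 0.556. Angptl4 was the highest of all 40 members per length in RCF, at 254 ± 4.01 RPKM, and Fabp3 was the highest in each of the other groups.

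**Figure D4:**
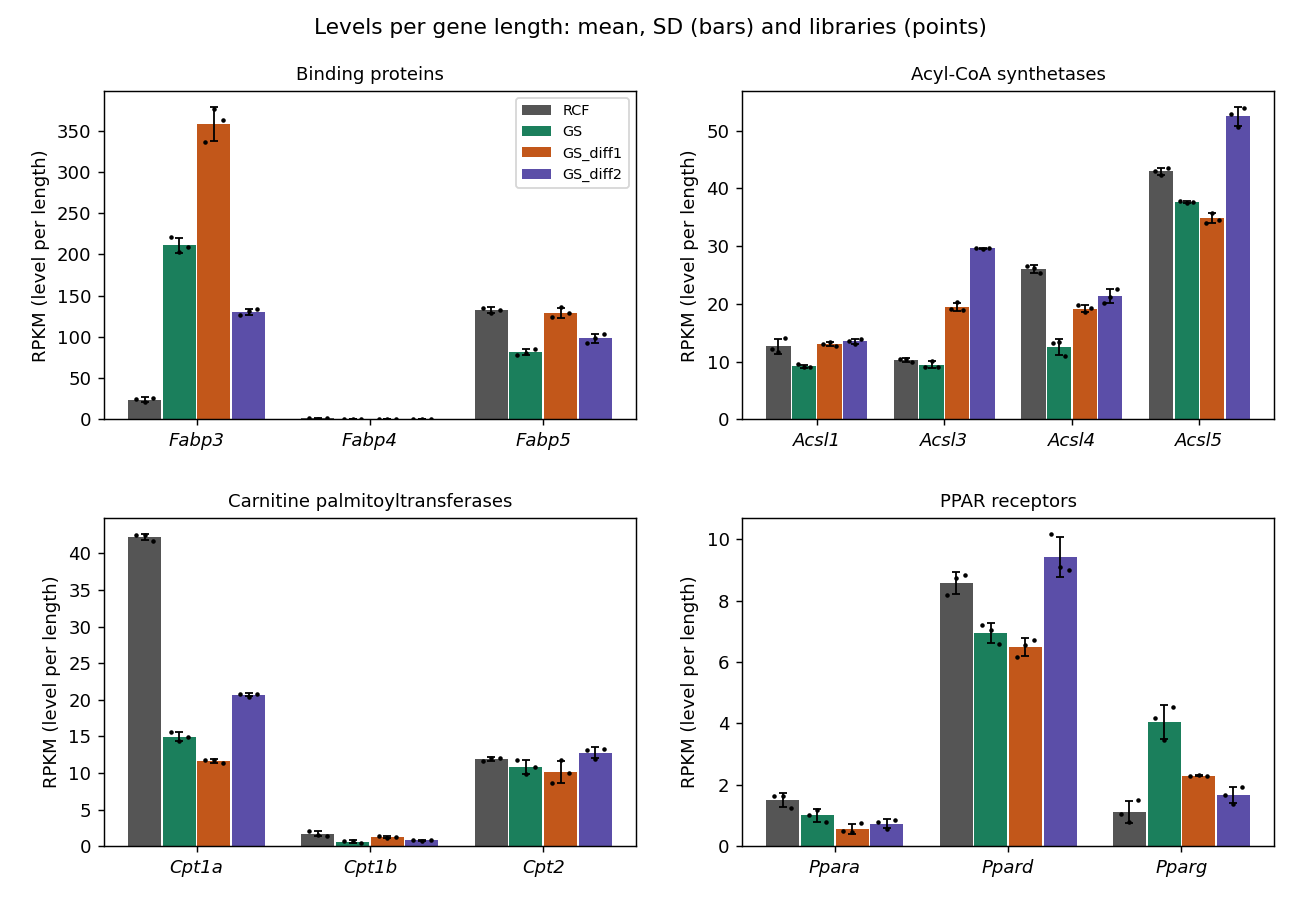
RPKM (CPM per kilobase of gene length) of the members of 4 families in each group; bars are means, error bars are SDs of 3 libraries and points are libraries. Fabp3 passes Fabp5 in GS, GS_diff1 and GS_diff2, and Acsl5, Cpt1a and Ppard are the highest of their families in all 4 groups.

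A wider list of 109 other genes of fatty acid and lipoprotein metabolism gave 104 rows, of which 88 were tested. In GS against RCF, 29 rose and 39 fell, which is 33% and 44.3% of them beside 35% and 36.3% of all genes tested, and the median log2 difference was −0.10. Lipa, the lysosomal lipase, fell by 2.96-fold, and Crat, which makes acetylcarnitine, fell by 2.41-fold. Rises were seen for Prkaa2, a catalytic subunit of the energy sensor AMPK, from 2.08 ± 0.521 to 35.5 ± 0.807 CPM (16.9-fold, adjusted p = 2.31e-22), and for Slc27a3, a synthetase of the FATP family, from 26.3 ± 1.58 to 133 ± 2.14 CPM (5.06-fold). By role, 15 of 24 genes of mitochondrial oxidation and acyl-CoA handling fell and 5 rose, and of 15 tested genes of peroxisomal oxidation 9 fell and 3 rose. Of 21 tested regulators and fuel switch genes, 12 rose and 4 fell. Among the 16 tested genes of uptake, binding and activation, 5 rose and 6 fell, near the 35% and 36.3% of all genes tested. Of 12 tested genes of lipid droplet and lipolysis, 4 rose and 5 fell.

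In GS_diff1 against GS, 19 of the 88 rose and 41 fell (21.6% and 46.6%, beside 32% and 32.3% of all genes). In GS_diff2 against GS, 23 rose and 35 fell (26.1% and 39.8%, beside 33.3% and 33.7% of all genes). Dbi, the acyl-CoA binding protein, rose from 21.4 ± 3.97 CPM in GS to 65 ± 10.2 in GS_diff1 and 72 ± 2.37 in GS_diff2. Pprc1, a relative of the PGC-1 coactivators, rose by 1.81-fold in GS_diff1, and Acot7, an acyl-CoA thioesterase, rose by 2.58-fold in GS_diff2. Plin4, a lipid droplet coat protein, fell from 8.28 ± 1.2 CPM in GS to 0.351 ± 0.158 in GS_diff1 and 0.85 ± 0.0329 in GS_diff2. Cebpb, a transcription factor of adipocyte formation, and the lipoprotein receptor Lrp1 fell in GS_diff1 by 7.02-fold and 3.41-fold. Vldlr, a receptor that works with lipoprotein lipase, measured 388 ± 12.3 CPM in GS and 443 ± 6.57 in GS_diff1, against 68.7 ± 3.75 in GS_diff2.

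In GS_diff2 against GS_diff1, 45 of the 88 were higher and 25 lower (51.1% and 28.4%, beside 32.1% and 31.5% of all genes), with a median log2 difference of 0.30. Of 15 tested peroxisomal genes, 11 were higher and 3 lower, and of 24 genes of mitochondrial oxidation and acyl-CoA handling, 15 were higher and 6 lower. Higher were Lpin1, a phosphatidate phosphatase that also acts as a coactivator (2.62-fold), and Cpt1c, the brain type carnitine palmitoyltransferase (2.25-fold). Acad11, an acyl-CoA dehydrogenase counted here with mitochondrial oxidation and acyl-CoA handling, was 2.23-fold higher. Lower were Vldlr (6.45-fold), Dgat2, the last enzyme of triglyceride synthesis (6.01-fold), and the deacetylase Sirt1 (2.51-fold). Each of these 6 had adjusted p-values of at most 8.93e-12 in edgeR's quasi-likelihood test. They were picked among called genes whose libraries did not overlap between these groups, so neither trait is added support.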

How the data were processed

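The authors deposited 1 table of whole-number read counts per gene, not normalized, for the 12 RNA libraries, with gene symbols, positions and gene length. Per the labels' protocols, total RNA came from the RNeasy kit and the Ovation RNA-seq System v2 made the libraries. The submitters' processing notes name Bowtie 0.12.2, mm8 and Rnor_6.0 but not what each was used for. The rat positions are given as Rnor_6.0. Not given in the sources used here are the annotation release, the strand setting and the program that counted reads, so overlapping genes and near-identical copies are uncertain.

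Each group was read from the labels, and the design text calls the samples biological replicates. Pairs of replicates differed by 4.44 to 7.57 times the chi-square per degree of freedom that sampling noise gives. None was therefore counted as the same library sequenced again. This check cannot tell separate cultures from separate preparations of the same culture, so the replicates rest on the design text. Counts were scaled by TMM (factors 0.956 to 1.03) and fitted over all 12 libraries with edgeR 4.0.16 (R 4.3.3, limma 3.58.1), after filterByExpr left 14399 genes tested and 18146 untested. The biological coefficient of variation was 9.72% with 8 residual degrees of freedom. Tests were two-sided quasi-likelihood contrasts, adjusted by Benjamini-Hochberg over the tested genes, with a threshold of 0.05. The fit was also run on simulated counts with 200 genes changed in GS only. Far more genes were called in the data themselves, so that run does not test the scaling here. RPKM was computed from the table's gene lengths. Promoter windows came from RefSeq (GRCr8), matched by symbol. A group at 0 was set against a floor of 3 counts per library. With 3 libraries a group, small differences of genes at a few CPM cannot be resolved.

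The members and the lists were chosen with earlier results of these data known, so no count is independent support. Values in every library are given for members called with at least 2-fold change in a main comparison that reach 5 CPM in the higher of its groups. Of the wider list, up to 3 rises and 3 falls per main comparison are named, among called genes whose libraries do not overlap and that reach 5 CPM. Some genes that this rule takes are not reported here. Besides the lists described in the report, 9 endothelial markers summed to 48.1 to 53.4 CPM in RCF. They summed to 299 to 401 CPM in the other libraries, mostly Flt1, with Cldn5 and Emcn at 0 in all 12. The 9 hepatocyte markers summed to at most 26.8 CPM. That sum was highest for GS_diff1 and was mostly Hnf4a, whose mean there was 26.05 ± 0.575 CPM. Hnf4a had no counts in the RCF libraries, and its mean was 3.16 ± 0.526 CPM for GS_diff2 and 1.85 ± 0.699 CPM for GS. Any link of Hnf4a to the members was not tested. Alternatives were DESeq2 size factors, library totals only, mitochondrial genes left out, no filter, limma-voom, DESeq2 1.42.0, only the 2 groups compared, the replicate number as a block, and leaving out each library.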

Additional observations from a re-analysis of the deposited data

How the results depend on the processing

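The numbers of members that rose and fell kept within 1.5 times under every alternative run in all 6 comparisons. With library totals only, the median of all genes moved from −0.03 to −0.13 in GS against RCF and from 0 to 0.08 in GS_diff2 against GS. In the same directions, 33 members fell instead of 28 in GS against RCF. In GS_diff2 against GS, 20 rose and 9 fell instead of 18 and 12. The share of all genes called with library totals is not reported here, so these changes are no result about the members. Leaving out 1 library gave 3 to 4 rises and 27 to 29 falls in GS against RCF, 11 to 12 and 14 to 17 in GS_diff1 against GS, 16 to 19 and 11 to 12 in GS_diff2 against GS, and 17 to 18 and 7 to 9 in GS_diff2 against GS_diff1. Against RCF it gave 5 to 6 and 26 to 28 in GS_diff1, and 5 to 7 and 27 in GS_diff2.

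Deviations of same-numbered libraries from their group means had correlations of −0.0599 to 0.0916 (18 pairs). For libraries of different number they were −0.109 to 0.0639 (36 pairs). No clear pairing by number was seen over all genes, and a weak one or one of few genes could not be seen this way. The replicate block gave 9 falls instead of 8 in GS_diff2 against GS_diff1, with Pparg added, and the same numbers as without it in the other comparisons (3 and 28 in GS against RCF).

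The log2 differences that changed sign were all of members that did not pass the test, and the cause was not tested. With library totals only, Hadhb went to −0.0871 in GS against RCF and then passed the test, and in GS_diff1 against GS Etfa went to 0.0529, Etfdh to 0.052 and Decr1 to 0.0081. On leaving out 1 library, in GS against RCF Eci1 was −0.1426 to 0.0091 and Hadhb was −0.0076 to 0.0357. In GS_diff1 against GS, Acadvl was −0.0058 to 0.0816, Cpt2 was −0.2049 to 0.0077 and Ehhadh was −0.0516 to 0.2395. There Etfa was −0.0684 to 0.0394 and Etfdh was −0.0364 to 0.0261. In GS_diff2 against GS Acaa2 was −0.0035 to 0.0455 and Etfa was −0.0343 to 0.0732. In GS_diff1 against RCF Acsl1 was −0.0117 to 0.1278. The depth limits Ppargc1a, Pnpla2, Cd36, Fabp4 and Ppargc1b, which hold 15 to 272 counts over the 12 libraries.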

Other observations

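LOC100911615, the row that the deposited table describes with the same protein as Pnpla2 (chromosome 1, 214434626 to 214439720), varied widely between cultures of 1 group. It measured 5.45, 0.667 and 26.9 CPM in the RCF libraries and 0.275, 10.6 and 3.67 CPM in GS. It measured 0.333, 0.403 and 2.09 CPM in GS_diff1 and 0.415, 10.8 and 0.261 CPM in GS_diff2. No comparison of it passed the test (adjusted p from 0.12 to 0.889, edgeR's quasi-likelihood test).

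The ratio of Acsl3 to Acsl5 counts within a library, which no scaling changes, fell into 2 levels. It was 0.259 to 0.282 in RCF and 0.271 to 0.307 in GS, and 0.619 to 0.641 in GS_diff1 and 0.624 to 0.659 in GS_diff2. The ratio was chosen after these values were seen, and it has no test.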
